A study of Mus musculus with 13 samples.

Results

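The 10 genes described here carry the Leydig cell through testosterone synthesis, in pathway order, and add its peptide hormone: Lhcgr, Scarb1, Star, Cyp11a1, Fdx1, Hsd3b1, Hsd3b6, Cyp17a1, Hsd17b3 and Insl3. They were chosen by name, for their place in the pathway, with earlier results of these data known. All 10 have a row among the 25965 genes of the deposited table. RNA of whole testes from mice aged 15 weeks, with the outer tunica removed, was sequenced in 13 libraries. The genotype labels are WT (wild type) for 3 libraries, Het (heterozygous for Wfdc15a) for 4 and KO (Wfdc15a knockout) for 6, and the series' design text takes WT and Het together as the control (n = 7). The titles also carry a number, 1 or 2. What it stands for, how the knockout allele was made and which strain was used are not stated in the labels. Title number 1 is that of Het replicate 1 and KO replicates 1 to 3, and title number 2 is that of the other 9 libraries. Each library is taken as 1 mouse because the design text counts mice.

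Leydig cells lie between the seminiferous tubules and are the source of testosterone in the testis. Luteinizing hormone binds its receptor on them and raises cyclic AMP, cholesterol is brought into the mitochondria, and a chain of enzymes turns it first into pregnenolone and then into testosterone. The same cells secrete INSL3, a hormone of the relaxin family that acts in testis descent and is used as a marker of mature Leydig cells. In a whole testis these cells are a small share of all cells, most of which are germ cells.

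All values are RPM (read counts scaled to the total of each library), taken from the log2 values the authors deposited. The libraries held 4.22 to 10.1 M reads on genes, and each of the 10 genes had at least 164 reads in every library. Wfdc15a itself stood at 53.5 to 85.8 RPM in the 7 controls, at 19.4 to 33.4 RPM in the 3 libraries labelled KO of title number 1 and at 48.1 to 81.3 RPM in the 3 of title number 2. Since its RNA does not separate all libraries labelled KO from the controls, each direction below is that of libraries named by their label. In whole tissue, a change in the number of Leydig cells and a change in RNA per cell cannot be told apart. RPM is a share of each library, so a change in the RNA of other cells cannot be told apart from these either.

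The promoter bases of the genes with the largest rises, and of the related pair Hsd3b1 and Hsd3b6, are shown first. They are the 250 bases before the start site given by RefSeq on GRCm38.p6, the build that mm10 is made from, and RefSeq start sites were matched for 7 of the 10 genes. The capitals mark matches to CAAGGNC, the core of the site of steroidogenic factor 1 (SF-1, Nr5a1, the master regulator of steroid enzymes), or to AGATAA, a site of GATA factors, on either strand.
Insl3 (chr8:71689002-71689251, plus strand): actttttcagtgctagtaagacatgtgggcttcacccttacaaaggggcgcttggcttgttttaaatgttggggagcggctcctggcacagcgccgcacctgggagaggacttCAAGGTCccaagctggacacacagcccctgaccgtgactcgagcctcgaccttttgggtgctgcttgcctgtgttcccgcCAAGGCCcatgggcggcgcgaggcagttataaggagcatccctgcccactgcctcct
Hsd17b3 (chr13:64089202-64089451, minus strand): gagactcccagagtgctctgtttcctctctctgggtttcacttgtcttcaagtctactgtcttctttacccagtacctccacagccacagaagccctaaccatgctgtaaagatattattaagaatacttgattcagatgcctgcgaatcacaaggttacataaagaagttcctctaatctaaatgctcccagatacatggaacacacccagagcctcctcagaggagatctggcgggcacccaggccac
Hsd3b1 (chr3:98859795-98860044, minus strand): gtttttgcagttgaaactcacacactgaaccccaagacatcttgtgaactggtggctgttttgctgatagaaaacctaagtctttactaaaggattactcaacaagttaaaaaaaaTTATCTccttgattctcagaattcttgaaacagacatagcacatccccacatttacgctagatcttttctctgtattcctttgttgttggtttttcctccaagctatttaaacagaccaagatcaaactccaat
Hsd3b6 (chr3:98814444-98814693, minus strand): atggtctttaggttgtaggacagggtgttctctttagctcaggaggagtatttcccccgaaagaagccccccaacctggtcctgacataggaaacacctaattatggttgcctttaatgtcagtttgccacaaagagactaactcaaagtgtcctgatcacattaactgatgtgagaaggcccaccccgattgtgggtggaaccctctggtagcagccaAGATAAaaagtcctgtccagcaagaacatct

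The Insl3 window held 2 matches to CAAGGNC, which begin at positions -137 and -57 from its start site, and the Fdx1 window held 1 on the other strand. Among all 32851 RefSeq windows of this length 15.0% held that core, and it was chosen after the longer form CAAGGNCA had matched in none of the 7 genes (5.53% of all windows). AGATAA was found at position -31 from the start of Hsd3b6 and, on the other strand, at -134 from that of Hsd3b1, and 9.99% of all windows held it. The cyclic AMP response element TGACGTCA (1.55% of all windows) and TATAAA (12.4%) were not among the letters of these windows in any of the 7 genes, and the Hsd17b3 window held none of the motifs. These matches describe letters only.

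In the libraries labelled KO, 8 of the 10 genes rose against the controls and none fell, by 1.46-fold to 3.19-fold (limma, adjusted p under the threshold of 0.05). Over all 16235 genes tested 18.4% rose and 6.18% fell. The median log2 difference of the 10 was 0.87, beside 0.16 over all genes, and all 10 point estimates were above 0 (0.33 to 1.67). Marker lists given below had medians of 0.85 for Sertoli cells, 0.84 for macrophages, 0.49 for peritubular cells and 0.30 for endothelium. Those of germ cells were 0.56 for spermatogonia, 0.005 for spermatocytes, -0.07 for round and -1.12 for late spermatids. The 2 of the 10 genes that were not called were Scarb1 and Hsd3b6. For 4 of the 10, Cyp11a1, Cyp17a1, Hsd17b3 and Insl3, every library labelled KO lay above every control, as it did for 5.06% of all genes tested.

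**Figure D1:**
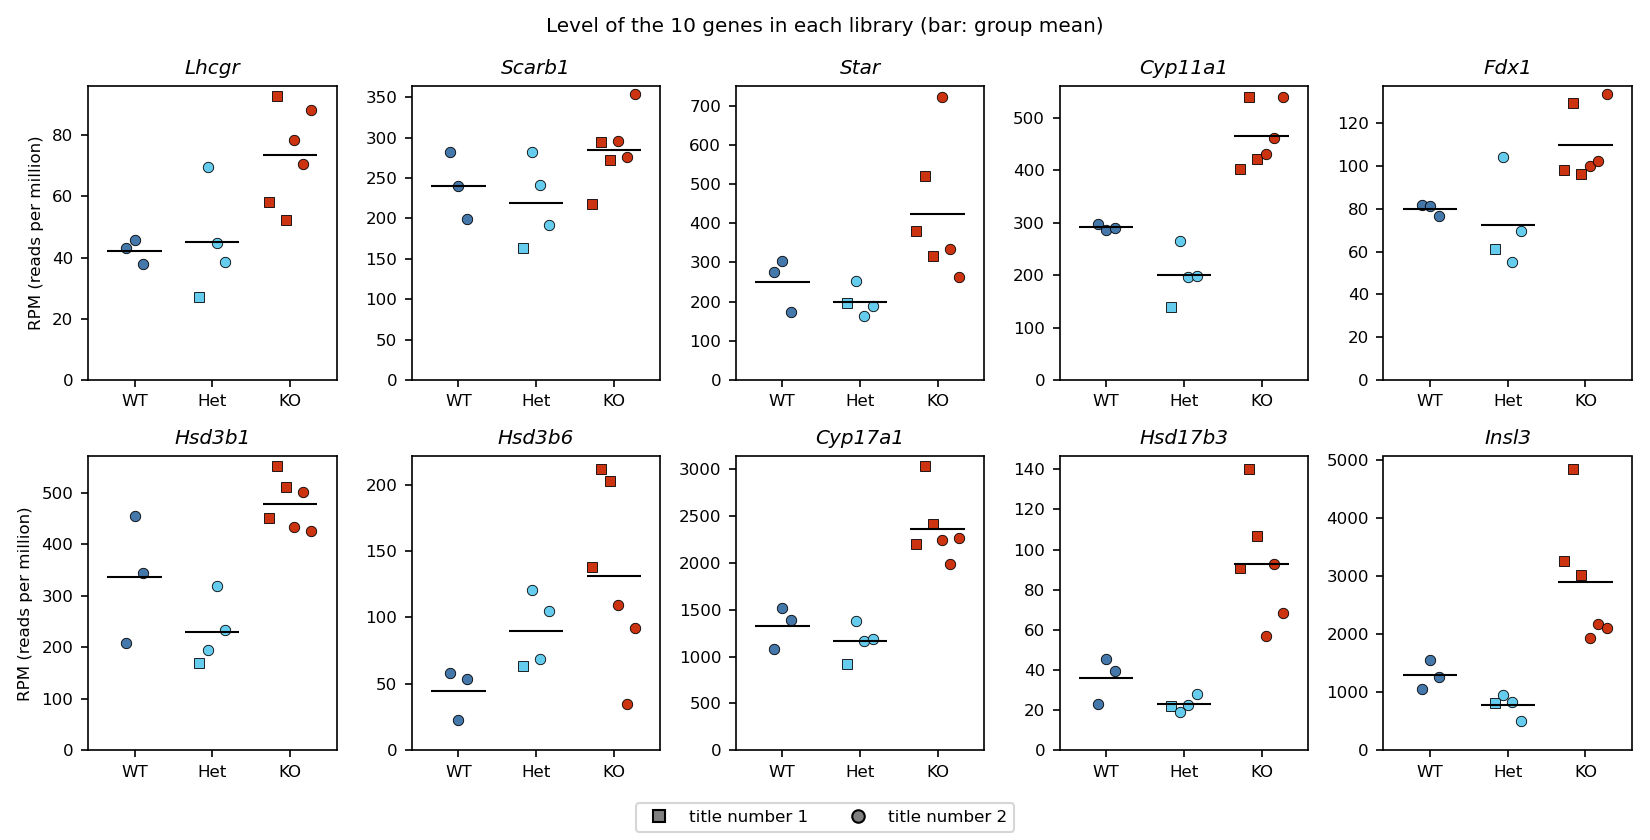
Level of each gene in RPM (linear axes from 0) in the WT, Het and KO libraries; each point is 1 library, squares are title number 1, circles title number 2, and the line is the group mean. For Cyp11a1, Cyp17a1, Hsd17b3 and Insl3 the 6 libraries labelled KO lie above all 7 controls, and for Hsd3b6 they spread from 35.1 to 212 RPM.

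The pathway begins at Lhcgr, the receptor for luteinizing hormone, on chromosome 17 from 88741549 to 88791976 (minus strand; all coordinates are those of the deposited table, mm10). Its RNA was at 43.0, 45.6 and 37.8 RPM in WT replicates 1 to 3 and at 27.3, 69.7, 44.9 and 38.6 RPM in Het replicates 1 to 4. In the libraries labelled KO it was at 52.3 RPM at the lowest, 74.4 at the median and 92.8 at the highest. Het replicate 2 was the highest control and lay inside the range of the libraries labelled KO, 4 of which lay above every control. Mean Lhcgr was 43.8 ± 13.01 RPM (SD, n = 7) in the first group and 73.5 ± 16.2 RPM (n = 6) in the second, a 1.68-fold rise (log2 0.75, SE 0.170, adjusted p = 0.00302).

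Cholesterol reaches the cell in part through Scarb1, the receptor for high-density lipoprotein (chromosome 5 from 125277087 to 125341094, minus strand). It had the smallest difference of the 10, with 163 to 283 RPM (median 240.2) among controls and 218 to 354 RPM (median 285) under the KO label. The log2 difference was 0.33 (SE 0.124, 95% interval 0.07 to 0.59, adjusted p = 0.0581), and 5 of the 6 libraries labelled KO lay above the control mean. It passed the threshold without WT replicate 1 (adjusted p = 0.0313), Het replicate 2 (0.0305) or KO replicate 1 (0.0230), with title number as a covariate (0.00769) and with quantile normalization (0.0383).

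Star carries cholesterol to the inner mitochondrial membrane, the step that hormones control from minute to minute (chromosome 8 from 25808474 to 25814723, plus strand). WT replicates 1 to 3 held 277, 304 and 172 RPM and Het replicates 1 to 4 held 197, 253, 163 and 188 RPM. The libraries labelled KO held 262 to 723 RPM with a median of 357, and 5 of the 6 lay above every control. KO replicate 4 was the highest at 723 RPM and KO replicate 6 the lowest. Star rose 1.84-fold (log2 0.88, SE 0.189, adjusted p = 0.00199), a call that was lost with WT only as control (log2 0.70, adjusted p = 0.0916). It had the widest spread of the called genes in the libraries labelled KO, with an SD of 40.5% of the mean.

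Inside the mitochondrion Cyp11a1 cuts the cholesterol side chain to make pregnenolone (chromosome 9 from 58015013 to 58027020, plus strand). The WT libraries lay close together at 298, 286 and 289 RPM, above all 4 Het libraries at 140.0, 266, 196 and 199 RPM. The 6 libraries labelled KO held 402, 540.1, 421, 431, 462 and 541 RPM, all above all controls. The means were 239 ± 60.8 RPM (n = 7) and 466 ± 60.7 RPM (n = 6), a log2 difference of 0.997 (SE 0.144, adjusted p = 5.14e-05). Fdx1, the ferredoxin that hands electrons to Cyp11a1 (chromosome 9 from 51943307 to 51963533, minus strand), differed less. Its means were 75.7 ± 16.0 and 109.9 ± 16.8 RPM (adjusted p = 0.00410 for a log2 difference of 0.55, SE 0.129), and only 2 of the 6 libraries labelled KO lay above the highest control, Het replicate 2 at 104 RPM. The call of Fdx1 was lost with WT only as control (adjusted p = 0.0503) and with title number 2 only (0.0505).

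Pregnenolone is turned into progesterone by 3-beta-hydroxysteroid dehydrogenase, and the mouse has a family of genes for it. Hsd3b1 lies on chromosome 3 from 98852194 to 98859794 and Hsd3b6, a form of adult Leydig cells, from 98805504 to 98814443 on the same strand (minus). Hsd3b1 held 209, 455 and 345 RPM in WT replicates 1 to 3 and 170.3, 195, 318 and 234 RPM in Het replicates 1 to 4. In the libraries labelled KO it held 425 to 551 RPM, with only WT replicate 2 among the controls inside that range. Hsd3b1 rose 1.83-fold (log2 0.87, SE 0.168, adjusted p = 0.000778), and its SD was 37.1% of the mean in the controls and 10.5% in the libraries labelled KO.

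Hsd3b6 had a point estimate close to that of Hsd3b1 and a wider spread. WT replicates 1 to 3 held 58.3, 22.7 and 53.5 RPM and Het replicates 1 to 4 held 63.5, 121, 69.1 and 105 RPM. KO replicates 1 to 3, of title number 1, held 138, 212 and 203 RPM, above all controls, while KO replicates 4 to 6, of title number 2, held 109, 35.1 and 92.3 RPM, inside the range of the controls. The difference from the controls over all 6 was 0.83 on the log2 scale with a wide interval, 0.10 to 1.57 (SE 0.352, adjusted p = 0.0883). It was called without KO replicate 5 (log2 1.17, adjusted p = 0.00741), with WT only as control (1.43, 0.0479), with a replicate block (1.31, 0.00986) and for KO of number 1 alone (1.51, 0.00313). The replicate block gives KO replicates 5 and 6 no weight, since those numbers occur only under the KO label. The block thus overlaps with the settings without KO replicate 5 and with number 1 alone. The log2 ratio of Hsd3b1 to Hsd3b6 averaged 2.03 in the controls and 2.06 under the KO label, a difference of 0.04 (exact permutation p = 0.948, adjusted over all 45 pairs of the 10 genes 0.969).

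The share of Hsd3b6 in the sum of both genes ran from 4.75% in WT replicate 2 to 38.3% in Het replicate 2. It was 4.75% to 21.8% in WT, 17.8% to 38.3% in Het and 6.53% to 28.4% in the libraries labelled KO, so the groups overlapped. The sum of the 2 rows was steadier than Hsd3b6 alone: 345 ± 83.1 RPM for controls against 610.4 ± 103 RPM under the KO label (adjusted p = 0.000151, log2 0.84, SE 0.135), with all 6 above every control. This sum was added after the data were seen.

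**Figure D2:**
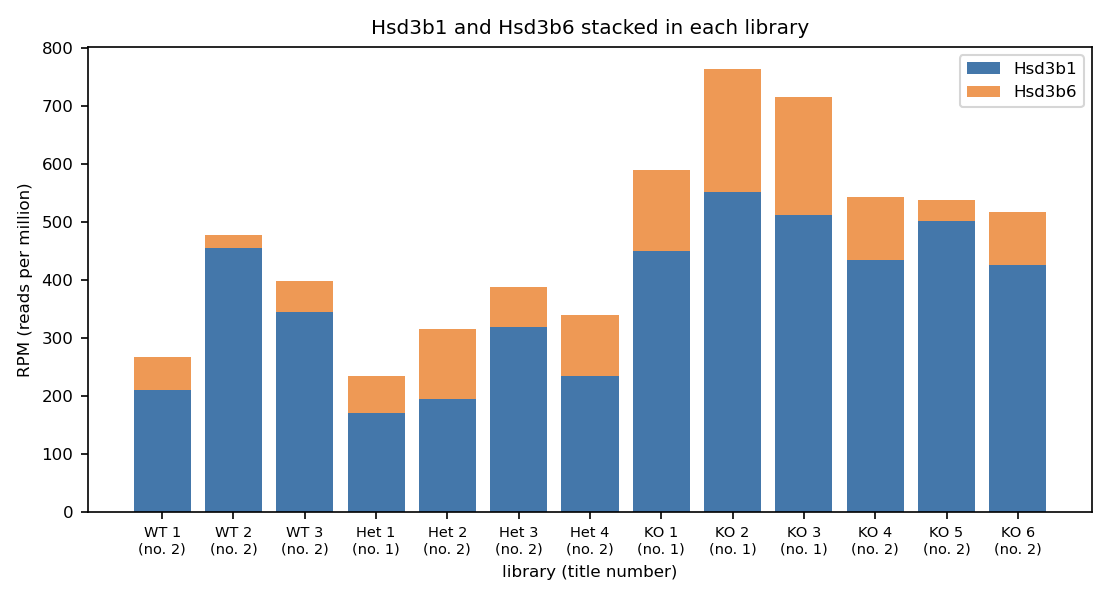
Stacked RPM of Hsd3b1 (lower part) and Hsd3b6 (upper part) in each of the 13 libraries, with the title number under each name. The total is 517 to 763 RPM under the KO label and 234 to 477 RPM for controls, and the Hsd3b6 part is thinnest in WT replicate 2 and KO replicate 5.

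How far reads of the 2 genes can be told apart bears on these values. Their longest coding transcripts in GENCODE M21 (1855 and 1802 bases) aligned with 81.0% identity over 1786 bases, and 38 of the 1753 windows of 50 bases in Hsd3b6 (2.17%) were also in Hsd3b1. The longest identical run, 72 bases, lies in the coding part of both (bases 625 to 696 of the Hsd3b1 transcript and 574 to 645 of Hsd3b6) and is shown because a read inside it cannot be assigned to either gene.
Hsd3b1 and Hsd3b6: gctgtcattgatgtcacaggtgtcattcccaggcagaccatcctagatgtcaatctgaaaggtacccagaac

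The labels do not say how such reads were counted. The 250 bases before the start sites of the 2 genes, printed above, were identical at 133 of 208 aligned positions (63.9%).

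Cyp17a1 takes the steroids on to androgens by its hydroxylase and lyase activities (chromosome 19 from 46667165 to 46672974, minus strand). Its RNA was at 1085, 1515 and 1388 RPM in WT replicates 1 to 3 and at 923, 1384, 1167 and 1182 RPM in Het replicates 1 to 4. The libraries labelled KO held 2195, 3026, 2417, 2246, 1988 and 2267 RPM. It had the lowest adjusted p of the 10, 4.74e-06, with a difference of 0.94 (SE 0.104), and the lowest library labelled KO (1988 RPM) lay above the highest control (1515 RPM).

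The last step, from androstenedione to testosterone, is made by Hsd17b3 (chromosome 13 from 64058274 to 64089201, minus strand), and it had the largest difference of the 10. WT replicates 1 to 3 held 22.9, 45.7 and 39.3 RPM and Het replicates 1 to 4 held 22.0, 19.1, 22.6 and 28.1 RPM. KO replicates 1 to 6 held 90.8, 140.3, 106.8, 56.9, 93.1 and 68.5 RPM, all above all controls. The means were 28.5 ± 10.1 RPM (n = 7) and 92.7 ± 29.4 RPM (n = 6). Its log2 difference of 1.67 (SE 0.205, adjusted p = 1.05e-05) was the 47th largest rise among all 16235 genes tested.

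Insl3, the peptide hormone, came next, with the 78th largest rise. WT replicates 1 to 3 held 1052, 1550 and 1267 RPM, above all 4 Het libraries at 809, 952, 832 and 500 RPM. KO replicates 1 to 3 held 3258, 4837 and 3017 RPM, and KO replicates 4 to 6 held 1941, 2171 and 2108 RPM. The lowest library labelled KO was above the highest control, and the 3 of title number 2 lay below the 3 of number 1. The log2 difference was 1.54 (SE 0.213, adjusted p = 3.48e-05).

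Insl3 is the only one of the 10 whose row overlaps another row of the table. It lies on chromosome 8 from 71689214 to 71690575 (plus strand), inside the span of Jak3 (71676296 to 71690575, same strand), a kinase of cytokine receptors in blood cells. In GENCODE M21 404 of the 623 exon bases of Insl3 (64.8%) are also exon bases of Jak3. The Jak3 row held 1066 RPM in WT replicate 1 and 4868 RPM in KO replicate 2, where Insl3 held 1052 and 4837 RPM. Over the 13 libraries Insl3 was 97.6% to 99.4% of the Jak3 value, and Jak3 exceeded Insl3 by 9.52 to 14.2 RPM among controls and by 14.8 to 31.3 RPM under the KO label. The Jak3 row had a log2 difference of 1.53 (limma, adjusted p = 3.42e-05). Jak3 has 5352 exon bases, so few of them are shared, while nearly all of its value is matched by the Insl3 row. The Jak3 row therefore cannot be read as a measure of Jak3 alone, and which gene the shared reads came from was not tested.

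The levels of different genes can be compared only per length, so RPM was divided by the length of all annotated exons in GENCODE M21. For Lhcgr, Star, Cyp11a1, Fdx1, Cyp17a1 and Hsd17b3 the annotated ends differ from those of the table rows. Lhcgr, for example, starts at 88716481 in the annotation and at 88741549 in the table. The lengths used may thus differ from those counted, and the order below holds for these lengths only. On that scale the controls held 1596 ± 546 RPM per kb of Insl3, 446 ± 73.9 of Cyp17a1 and 148 ± 55.0 of Hsd3b1 (SD, n = 7), and the ranges of these 3 did not overlap with their neighbours'. Star (54.0 ± 13.5), Cyp11a1 (49.8 ± 12.7), Hsd3b6 (39.0 ± 18.2), Scarb1 (26.9 ± 5.38), Fdx1 (24.4 ± 5.16) and Hsd17b3 (20.5 ± 7.26) followed, each overlapping the next in that order. Lhcgr, the receptor, was lowest at 5.73 ± 1.70 RPM per kb and lay below the range of Hsd17b3. In the libraries labelled KO the first 6 kept their places by mean level, while Hsd17b3 moved from 9th to 7th and Scarb1 from 7th to 9th.

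**Figure D3:**
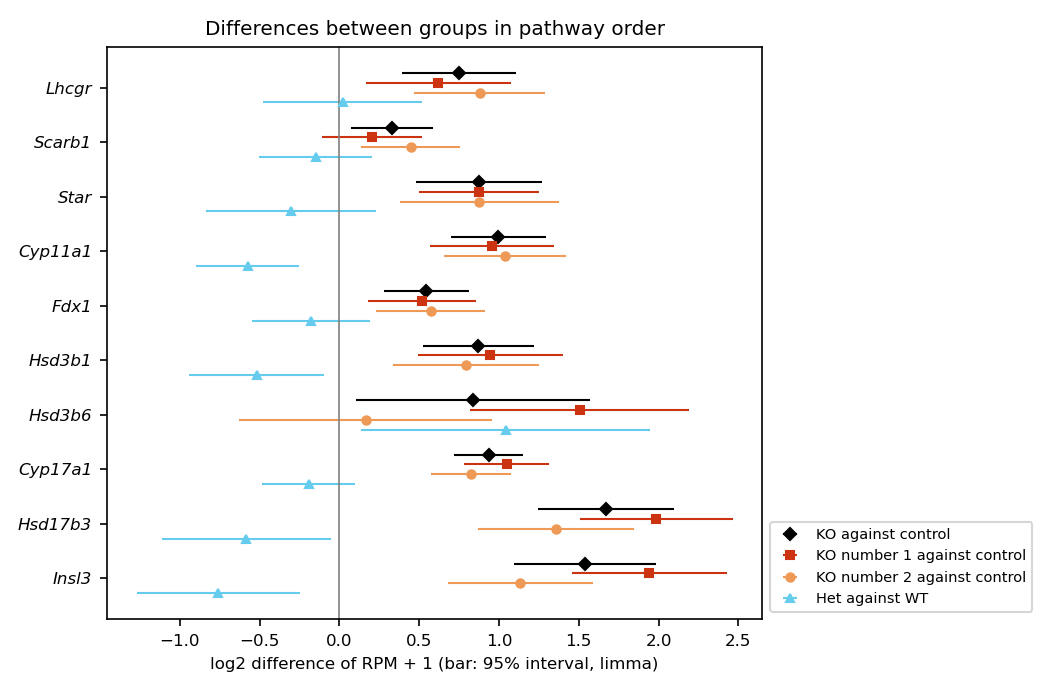
Log2 difference of RPM + 1 for each gene (points, with 95% intervals from limma) for KO against control, for KO of title number 1 and of title number 2 each against all controls, and for Het against WT. All 10 points of KO against control lie right of 0, and for Het against WT only Hsd3b6 and Lhcgr do.

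The control group holds 2 genotypes, and they were compared with each other. No gene of the 16235 tested was called between Het and WT in either direction (limma, 0% higher and 0% lower), and so none of the 10. At an unadjusted p under 0.05 there were 5 of the 10, beside 957 of all genes (5.89%). These were Insl3 (log2 -0.76, SE 0.245), Hsd17b3 (-0.58, SE 0.255), Cyp11a1 (-0.57, SE 0.155) and Hsd3b1 (-0.52, SE 0.204), with lower values in Het, and Hsd3b6 (1.04, SE 0.434), with higher ones. Their adjusted p-values were 0.598 to 0.765, so none of these differences held over all genes. With voom weights in limma, and without any 1 library, none of the 10 was called either.

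Against WT alone 6 of the 10 passed the test as higher in the libraries labelled KO (Lhcgr, Cyp11a1, Hsd3b6, Cyp17a1, Hsd17b3 and Insl3), where 6.05% of all genes did. Against Het alone 8 rose, all but Scarb1 and Hsd3b6, where 16.9% of all genes did. These comparisons share the libraries labelled KO. Insl3 differed by 1.10 (SE 0.227, adjusted p = 0.00476) from WT and by 1.86 (SE 0.207, adjusted p = 6.79e-06) from Het, and Hsd17b3 by 1.34 and 1.92. For Hsd3b6 the values were 1.43 (adjusted p = 0.0293) from WT and 0.39 (adjusted p = 0.496) from Het. The count against WT was 3 without WT replicate 1 and 2 with no filter on low values, where Lhcgr (adjusted p = 0.153), Cyp11a1 (0.0599), Hsd3b6 (0.190) and Insl3 (0.0794) were not called. The call of Lhcgr against WT was also lost with median-of-ratios scaling (0.0814), with quantile normalization (0.0864), without any 1 of the WT libraries and without KO replicate 2, 4 or 6 (0.0510 to 0.118). That of Hsd3b6 was also lost with both of these scalings, with voom weights (0.0667), with title number as a covariate (log2 1.08, adjusted p = 0.117), without WT replicate 1 or 2 and without KO replicate 1, 2 or 3. Without WT replicate 2 the Hsd3b6 difference was 1.01 (adjusted p = 0.177). Other settings added calls against WT, up to 8 of the 10 genes. Hsd3b1 (adjusted p = 0.0609 in the main fit) was called with quantile normalization (0.0327), voom weights (0.0465) and a replicate block (0.0294). It also passed without WT replicate 2 (0.0163) or Het replicate 3 (0.0410). Star was called with a replicate block (0.00414) and without KO replicate 6 (0.0248), and Fdx1 without Het replicate 2 (0.0387). Against Het, Hsd3b6 was called with a replicate block (0.88, adjusted p = 0.0399). Scarb1 was called against Het with quantile normalization (0.0450) or title number as a covariate (0.0115). It also passed without Het replicate 2 (0.0145) or KO replicate 1 (0.0233). Lhcgr was not called against Het with no filter (0.0783), with quantile normalization (0.0544) or without Het replicate 1 (0.0676).

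The title number splits the libraries labelled KO into 3 and 3. Against all controls 9 of the 10 genes rose in number 1, all but Scarb1 (16.5% of all genes rose), and 8 in number 2, all but Scarb1 and Hsd3b6 (7.24% of all genes). The 2 comparisons share their controls. Hsd17b3 differed from the controls by 1.99 in number 1 and 1.36 in number 2, Insl3 by 1.94 and 1.14, Cyp17a1 by 1.05 and 0.83, Cyp11a1 by 0.96 and 1.04, and Star by 0.88 in both. Within title number 2 alone (3 libraries labelled KO against 6 controls) 7 of the 10 rose, beside 5.36% of all genes, and Fdx1 was no longer called (log2 0.53, adjusted p = 0.0505). Number 1 holds 1 control, so it gives no such comparison by itself.

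Compared directly, number 2 against number 1 gave no call among the 10 (limma, 0.154% of all genes higher and 0.191% lower). At an unadjusted p under 0.05 there were 3 of the 10, beside 12.6% of all genes, and all 3 were lower in number 2. Hsd3b6 differed by -1.34 on the log2 scale (SE 0.357, adjusted p = 0.109), Insl3 by -0.81 (SE 0.191, adjusted p = 0.0750) and Hsd17b3 by -0.63 (SE 0.235, adjusted p = 0.273). Insl3 was called lower with voom weights (adjusted p = 0.0468) and without Het replicate 4 (adjusted p = 0.0265). The first 5 genes of the pathway differed between the numbers by 0.00 to 0.26.

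Whether the genes changed by different amounts was tested on ratios within a library, which do not depend on its scaling. For all 45 pairs the difference of log2(RPM + 1) between 2 genes was compared between 6 libraries labelled KO and 7 controls (exact permutation test, two-sided, all 1716 splits, adjusted over the 45 pairs). The ratio differed for 10 pairs. Scarb1 was in 5 of them, Hsd17b3 in 4, Fdx1 in 3, Cyp11a1, Cyp17a1 and Insl3 in 2 each, and Lhcgr and Hsd3b1 in 1 each. Star and Hsd3b6 were in none. The pairs share genes and libraries, so these counts are not separate results. How often ratios of other genes differ was not tested.

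Hsd17b3 rose relative to Cyp17a1 by 0.74 (exact permutation p = 0.00524, adjusted p = 0.0262), which is 1 step upstream of it, and relative to Hsd3b1 by 0.80 (exact p = 0.00117), to Fdx1 by 1.13 (exact p = 0.00291) and to Scarb1 by 1.34 (exact p = 0.00466). Insl3 rose relative to Fdx1 by 0.99 and to Scarb1 by 1.21, while its ratio to Cyp17a1 differed by 0.60 with an adjusted p of 0.0656 (exact permutation p = 0.0175). Cyp11a1 rose relative to its electron donor Fdx1 by 0.45 (exact p = 0.00175) and relative to Scarb1 by 0.67 (exact p = 0.00117), both with no overlap between the groups. The ratio of Hsd17b3 to Insl3 differed by 0.13 (exact p = 0.561), and that of Cyp11a1 to Cyp17a1 by 0.06 (exact p = 0.666).

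Within title number 2 alone none of the 45 pairs passed after adjustment, with 4 at an unadjusted exact p under 0.05. That comparison has 84 splits and a smallest p of 0.0119, so a pair could pass adjustment only if many pairs did so together. It therefore cannot tell whether the ratios differ within title number 2. All 10 pairs had the same sign in it, but its libraries are among those that gave the 10 pairs, so this is no separate support. The adjusted p of Hsd17b3 to Cyp17a1 was 0.0505 without KO replicate 1, 2 or 5, and it was at most 0.0487 without any other 1 library.

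**Figure D4:**
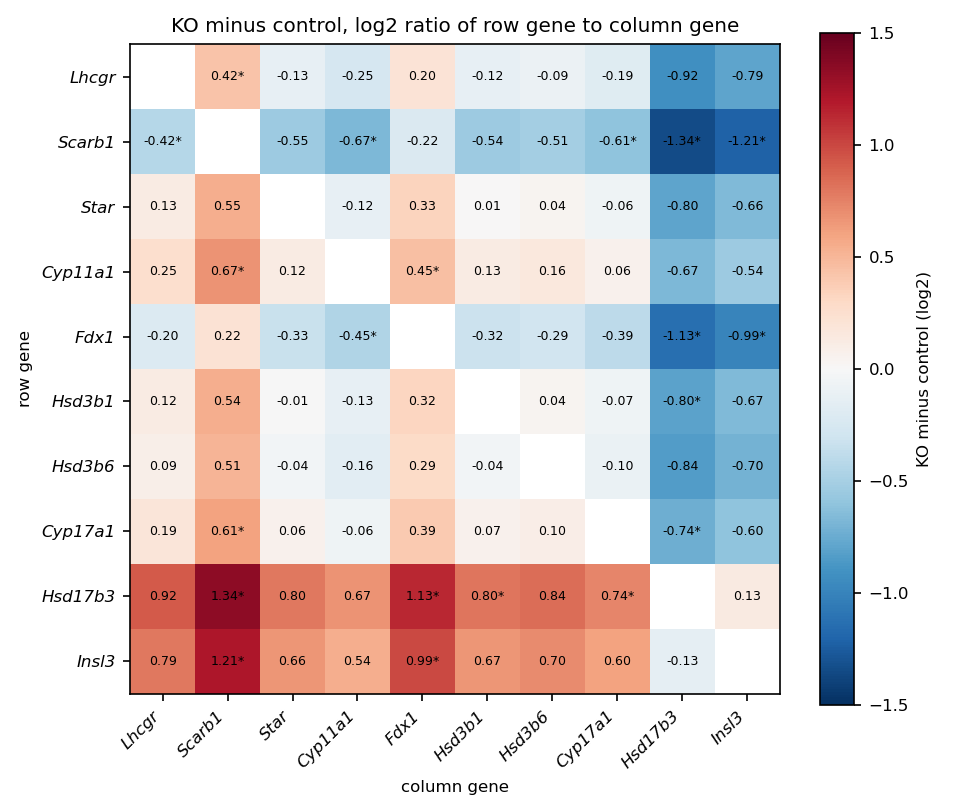
Difference between the libraries labelled KO and the controls in the log2 ratio of the row gene to the column gene, for all 45 pairs shown on both sides of the diagonal; red is a higher ratio in KO, blue a lower one, and a star marks an adjusted exact permutation p under 0.05. The rows of Hsd17b3 and Insl3 are red against the other 8 genes, and the row of Scarb1 is blue against the other 9.

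The genes most like 3 of the 10 were sought by the correlation of log2(RPM + 1) over the 13 libraries after each group's mean was taken off (KO and control), a description with no test. Closest to Cyp17a1 were Elovl5, which elongates fatty acids (r = 0.94), Scd2, a fatty acid desaturase (0.90), and Echs1, an enzyme of fatty acid oxidation (0.90). Closest to Hsd17b3 were Enpp5 (0.95), the collagen gene Col3a1 (0.94) and Syngr2 (0.94), and Syngr2 overlaps another row. Closest to Insl3, after the overlapping Jak3 row, were Pcolce, which aids collagen processing (0.95) and overlaps another row, and Fth1, the heavy chain of ferritin (0.95). Libraries share their depth and their makeup of cells over all genes. Among the 10 the lowest such value was that of Hsd3b1 with Hsd3b6 (r = -0.41).

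Other genes of the pathway were taken from lists written by role. For each list below, the share over all genes tested is 18.4% higher and 6.18% lower, with a median of 0.16. Of 16 genes of cholesterol supply 12 rose and 1 fell, with a median of 0.92. Soat1, which stores cholesterol as esters, went from 94.3 ± 18.1 to 176 ± 28.8 RPM (log2 0.90), and Stard5, a cholesterol carrier, from 14.6 ± 3.91 to 34.4 ± 6.19 RPM (1.20), though its row overlaps another. Lipe, the hormone-sensitive lipase, fell from 415 ± 64.8 to 243 ± 42.6 RPM (log2 -0.78), and its row overlaps another. Which cells of the testis the RNA of Lipe came from was not tested. Acbd3 was at 34.9 and 33.8 RPM (log2 -0.01, adjusted p = 0.968), and Acsl4 at 13.1 and 21.9 RPM (log2 0.65, adjusted p = 0.0571). Acsl4 was called higher with a replicate block (1.02, adjusted p = 0.00110), for KO of number 1 alone (1.01, 0.00512), among genes of at least 5 RPM (0.0495) and without WT replicate 3 (0.0258) or KO replicate 6 (0.00382).

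All 4 tested electron partners of the steroid enzymes rose, with a median of 0.70. Fdxr, the reductase that loads Fdx1, rose by 1.002 (35.5 ± 7.36 to 72.6 ± 17.9 RPM) and Por, the partner of Cyp17a1, by 0.77 (37.3 ± 5.29 to 65.0 ± 14.2 RPM) on the log2 scale. The call of Por was lost with WT only as control (adjusted p = 0.0518). Cyb5r3, which reduces cytochrome b5, rose by 0.64. The difference of Fdxr was thus above that of Fdx1 (0.55), a comparison that was not tested.

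Of 18 tested genes of luteinizing hormone signalling and Leydig transcription 6 rose and 2 fell, with a median of 0.35, beside 18.4% higher, 6.18% lower and a median of 0.16 over all genes tested. Nr5a1, which codes for SF-1, rose by 1.15 (39.4 ± 8.30 to 88.2 ± 14.1 RPM, adjusted p = 6.91e-06), and its row overlaps another. Gnas, the stimulatory G protein, rose by 0.63, and its row overlaps 2 others. Akap1, an anchor of protein kinase A, fell by 0.68, from 762 ± 87.7 to 476 ± 59.6 RPM, and its row overlaps another. The other that fell was Prkar2a, a regulatory kinase subunit named after its value was seen (log2 -1.01). Which cells of the testis the RNA of Akap1 and Prkar2a came from was not tested. Prkaca, the catalytic kinase subunit, was at 66.1 and 72.1 RPM (log2 0.11, adjusted p = 0.547), and Pde8a, a phosphodiesterase, at 263 and 235 RPM (-0.17, adjusted p = 0.213). Pde8a passed as lower under median-of-ratios scaling (-0.33), with a replicate block (-0.27, adjusted p = 0.0341), with number 1 alone (-0.38) and without KO replicate 4 (-0.26).

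Of 12 tested genes of androgen metabolism and other steroid enzymes 5 rose and none fell, with a median of 0.54. Sult1e1, the estrogen sulfotransferase of Leydig cells, went from 54.1 ± 13.5 to 107.1 ± 28.0 RPM (log2 0.97), Hsd17b12 rose by 0.98 and Hsd17b4 by 0.60. Srd5a1, which reduces testosterone to dihydrotestosterone, was at 5.76 and 5.98 RPM (log2 0.04, adjusted p = 0.925), and its row overlaps 2 others. Of 3 tested relatives of Hsd3b1, 2 rose, Nsdhl by 0.73 and Hsd3b7 by 0.63. Hsd3b7 overlaps another row and was not called with median-of-ratios scaling (adjusted p = 0.0664), with quantile normalization (0.186), with title number 2 only (0.256), with number 2 alone against all controls (0.179), with WT only as control (0.133) or without KO replicate 2 (0.0506). Hsd3b2 was at 0.953 and 2.35 RPM (log2 0.65, adjusted p = 0.184), and it was called with a replicate block (adjusted p = 0.0409) and without KO replicate 5 (0.96).

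Among genes of androgen action in Sertoli cells, Serpina5 rose by 1.23, from 154 ± 48.6 to 366 ± 118 RPM, and Tubb3 by 0.88, while Cldn3, a tight junction gene, fell from 18.5 ± 2.56 to 8.60 ± 2.86 RPM (log2 -1.08). Tubb3 and Cldn3 overlap other rows, and Tubb3 was not called with title number 2 only (adjusted p = 0.0852), with number 2 alone (0.0584) or with WT only as control (0.144). Rhox5, a homeobox gene of Sertoli cells, was at 8.86 ± 2.59 and 11.8 ± 4.49 RPM (log2 0.34, adjusted p = 0.322). Of the relaxin family and its receptors 2 were tested and none was called (limma). Rxfp2, the receptor for INSL3, was at 13.5 ± 2.22 and 9.48 ± 3.36 RPM (log2 -0.52, adjusted p = 0.0700), and Insl6 at 179 ± 21.4 and 170.0 ± 18.9 RPM (-0.07, adjusted p = 0.596). Rxfp2 passed as lower under median-of-ratios scaling (-0.66), with quantile normalization (-0.81) and without KO replicate 4 (-0.63) or 6 (-0.60).

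Marker lists of other cell types were counted beside these genes, where 18.4% of all genes tested rose and 6.18% fell. Of 12 Leydig markers, 8 of which are among the 10 genes, 11 rose. Their summed level was 2910 to 5428 RPM among controls and 7124 to 12129 RPM under the KO label. That sum was mostly Cyp17a1 and Insl3, at means of 1235 and 994 RPM in controls. The 4 markers outside the 10 genes, Nr5a1, Ptgds, Prlr and Vcam1, all rose (the last 3 were named after their values were seen). Of 10 Sertoli cell markers 7 rose, with sums of 1312 to 2191 and 2353 to 3735 RPM. The Sertoli sum was mostly Clu, at a mean of 1403 RPM in controls. All 9 markers of late spermatids fell, from 10707 to 15597 RPM in sum to 4481 to 7092 RPM. Of 5 round spermatid markers 2 fell (Tssk1 and Tssk2), of 6 spermatocyte markers 1 fell (Pgk2) and of 6 spermatogonial markers 2 rose (Kit and Stra8). Among macrophage markers 5 of 7 rose, but their sum (822 to 1027 against 912 to 1115 RPM) was mostly Cx3cr1, at a mean of 837 RPM in controls, whose row overlaps 5 others. Of 5 peritubular markers 1 rose (Myh11; 46.8 to 116 against 73.1 to 145 RPM in sum), and of 5 endothelial markers 2 (Cdh5 and Kdr; 6.61 to 32.2 against 26.4 to 47.8 RPM). With title number 2 only, Tssk1, Stra8, Myh11, Kdr and the macrophage marker Csf1r (adjusted p = 0.0806) were not called. Tssk1 and Myh11 were also not called with quantile normalization, for KO of number 1 alone or with WT only as control, nor were Csf1r (0.0523) and Stra8 (0.0757) with WT only as control. The part of these shifts in the rise of the 10 genes was not tested.

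Markers of the epididymis and of the adrenal cortex differed in level. Epididymal markers summed to at most 1.01 RPM in any library. The 4 adrenal cortex markers summed to 7.75 to 15.5 RPM in the controls and 17.1 to 83.3 RPM under the KO label, mostly from Cyp21a1. Cyp11b1 and Mc2r had no reads in any control, and in the libraries labelled KO they reached at most 0.870 and 0.124 RPM. Cyp11b2 was at 0.886 ± 0.804 and 1.94 ± 1.23 RPM (log2 0.61, adjusted p = 0.206). Cyp21a1, the steroid 21-hydroxylase, which has a near-identical pseudogene copy that counting may not separate from it, rose from 10.3 ± 3.27 to 39.8 ± 21.4 RPM (adjusted p = 7.50e-05 for a log2 difference of 1.76, SE 0.262). The part of adrenal tissue in these values was not tested.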

How the data were processed

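The authors deposited 1 table of log2 RPM values (read counts scaled to the library's total) for 25965 genes in 13 Smart-seq2 libraries, made from 2 ng of total RNA with 11 cycles of PCR per the labels' protocols. Per the submitters' processing notes, the tools were Trim Galore 0.6.6 and FastQC 0.11.8 with genome mm10. No aligner, counting program or strand setting is named (not given in the sources used here). The lowest value of each library is that of 0.9 read and was set to 0, and at least 99.96% of the other values are whole numbers of reads (within 0.01 read). One read was worth 0.0899 to 0.222 RPM, so 3 reads, the limit of a count of 0 at 95% confidence (counting error only), were 0.270 to 0.665 RPM.

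Groups came from the labels. A linear model with a mean-variance trend (limma 3.58.1, R 4.3.3) was fitted to log2(RPM + 1) for genes whose mean RPM was 1 or more, as the unit is log2 and not counts, with two-sided p-values and Benjamini-Hochberg adjustment over all genes tested and a threshold of 0.05. Fold changes are of RPM + 1 and understate those of low genes. The fit for KO against control had 2 groups, the comparisons among the 3 genotypes shared 1 fit, and KO number 2 against number 1 came from a fit with 4 groups. Ratios of genes were tested by exact permutation. The limma fit was tested on simulated counts. Exon lengths and transcripts are GENCODE M21 and promoters RefSeq on GRCm38.p6.

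The 10 genes, the lists and the tests were chosen with earlier results of these data known. From each list, up to 3 called genes with the lowest p and up to 2 uncalled genes with the highest level were eligible to be named, with all 10 genes, overlapping rows and the 3 genes most like Cyp17a1, Hsd17b3 and Insl3. Not all eligible genes are given, and 1 gene of the lists is not reported here. Alternatives were another pseudocount, other filters, scalings and weights, blocks, title number, single genotypes as control and leaving out each library. The alternatives for the comparisons among genotypes and between title numbers, and the sum of the Hsd3b1 and Hsd3b6 rows, were added after the data were seen.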

Additional observations from a re-analysis of the deposited data

How the results depend on the processing

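The count of the 10 genes called higher in KO against control was 8, and it was 7 to 9 under the 13 alternatives of processing and grouping (7 with title number 2 only and with WT only as control) and 8 to 9 without any 1 library. None of the 10 was called lower in any of them. Of the 8 called genes Cyp11a1, Cyp17a1, Hsd17b3, Hsd3b1, Insl3 and Lhcgr stayed past the threshold throughout. Hsd3b1 and Lhcgr came close to it, with highest adjusted p-values of 0.0487 and 0.0478. With WT only as control Star (adjusted p = 0.0916) and Fdx1 (0.0503) were not called. In the fit of the 3 genotypes Hsd3b1 was not called against WT (0.0609). Median-of-ratios scaling moved the median of all genes by -0.14 and quantile normalization by -0.17 on the log2 scale. Against WT 6 genes were called, 2 to 8 under the other settings (2 with no filter on low values) and 3 to 7 without any 1 library. Against Het it was 7 to 9 and in Het against WT 0 without any 1 library. In number 2 against number 1, 1 gene was called lower with limma-voom on recovered reads, and 0 to 1 without any 1 library. Of the ratios, 10 of 45 differed, 0 with title number 2 only and 8 to 13 without any 1 library. With title number 2 only, the few splits let a pair pass only if many pairs did so together. The cause of the other shifts was not tested.

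With the replicate block 9 genes were called in KO against control, Hsd3b6 being added (log2 1.31). KO replicates 5 and 6 carry no weight in it, as those numbers occur only under the KO label. The deviations of same-numbered libraries of different groups correlated at -0.08 to 0.13, so the number does not pair them. Each of the 10 genes had at least 164 reads in each library.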
